A study of Homo sapiens with 32 samples.

Results

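The earliest transcript changes under CBD were examined in SK-N-BE(2) cells by comparing cultures exposed to 20 µM CBD for 3 h with time-matched vehicle cultures. SK-N-BE(2) is an established human neuroblastoma line that carries many copies of MYCN, and CBD (cannabidiol) is a non-intoxicating constituent of Cannabis. The comparison uses 8 of the 32 RNA-Seq samples of the series, 4 with CBD dissolved in ethanol and 4 with vehicle (0.1% ethanol), chosen by their labelled treatment and time. The other 24 samples hold the same treatments at 6, 12 and 24 h, each time with its own vehicle. All cultures were of 1 cell line, plated the day before treatment, and nothing but the replicate number distinguishes samples of a group, so the tests measure the spread between these samples.

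Expression is given as FPKM, a read count scaled for transcript length and sequencing depth. The table lists 22610 gene entries, of which 17909 were above 0 in all 8 samples. The number of reads per sample is unknown from FPKM. The depth of a sample relative to the others, estimated from the steps between low values, was 0.945 ± 0.069 (SD, n = 4) with CBD and 1.03 ± 0.070 (SD, n = 4) with vehicle (exact two-sided permutation test, 4 against 4, p = 0.143). Markers of noradrenergic neuroblastoma were present at high levels, with MYCN between 1497 and 1729 FPKM and HAND2 between 489 and 526 FPKM in the 8 samples. The summed level of the 13 adrenergic markers was 4660 to 4874 FPKM with CBD and 4462 to 4653 FPKM with vehicle. The 4 blood and immune markers in the table summed to under 1 FPKM in every sample. The 7 mesenchymal markers summed to 11.1 to 12.5 FPKM with CBD and 10.9 to 11.6 FPKM with vehicle, most of it from SNAI2 (8.86 to 10.4 FPKM in the 8 samples), with COL1A1 between 1.02 and 1.298 FPKM, FN1 and NOTCH3 under 1 FPKM, and YAP1, PRRX1 and COL1A2 at or near 0.

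Metallothioneins are small cysteine-rich proteins that bind zinc, copper and cadmium. When free zinc rises, the zinc-finger protein MTF1 binds metal response elements in the promoters of the metallothionein genes and of the zinc exporter gene SLC30A1 and activates them, while the gene of the zinc importer SLC39A10 is repressed. Other early programs draw on other sensors. Heat shock factors respond to unfolded cytosolic proteins, ATF4 is translated when eIF2α kinases are active, NFE2L2 is stabilised by electrophiles and oxidants, and immediate-early genes such as FOS and EGR1 are transcribed within minutes of kinase signalling from factors already present in the cell.

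The promoters of 6 genes that were higher with CBD at 3 h are shown because each belongs to one of these programs and holds the sequence element named for it. They are RefSeq sequences on GRCh38.p14, running from 250 bases before to 50 bases after the annotated start, 5′ to 3′ on the strand of the gene, with matches on either strand in capitals. In MT2A (chr16:56608334-56608633, plus strand), MT1X (chr16:56682220-56682519, plus strand) and SLC30A1 (chr1:211579112-211579411, minus strand) the capitals mark the core of the metal response element, TGCACNC or TGCGCNC. In CHAC1 (chr15:40953221-40953520, plus strand) they mark the C/EBP-ATF response element TGATGNAAN, in HSPA1B (chr6:31827488-31827787, plus strand) the paired heat shock unit GAANNTTC, and in EGR1 (chr5:138465229-138465528, plus strand) the CArG box bound by serum response factor.
MT2A: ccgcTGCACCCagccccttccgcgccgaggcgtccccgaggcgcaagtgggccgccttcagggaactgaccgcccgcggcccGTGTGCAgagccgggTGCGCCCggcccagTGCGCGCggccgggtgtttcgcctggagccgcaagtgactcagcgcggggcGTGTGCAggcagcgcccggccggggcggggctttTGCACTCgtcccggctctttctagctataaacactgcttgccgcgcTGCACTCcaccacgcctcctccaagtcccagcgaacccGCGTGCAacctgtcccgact
MT1X: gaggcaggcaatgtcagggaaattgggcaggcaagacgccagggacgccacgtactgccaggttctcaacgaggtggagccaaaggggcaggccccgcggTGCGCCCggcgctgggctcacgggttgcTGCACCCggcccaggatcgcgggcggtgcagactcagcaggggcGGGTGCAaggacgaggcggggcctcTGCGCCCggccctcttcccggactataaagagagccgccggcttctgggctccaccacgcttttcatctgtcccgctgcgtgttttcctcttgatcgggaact
SLC30A1: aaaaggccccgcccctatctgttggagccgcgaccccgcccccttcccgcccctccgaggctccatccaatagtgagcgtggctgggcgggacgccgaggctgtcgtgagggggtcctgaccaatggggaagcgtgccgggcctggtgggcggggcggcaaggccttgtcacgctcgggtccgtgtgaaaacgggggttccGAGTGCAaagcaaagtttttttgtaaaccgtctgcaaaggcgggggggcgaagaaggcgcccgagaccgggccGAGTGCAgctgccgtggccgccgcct
CHAC1: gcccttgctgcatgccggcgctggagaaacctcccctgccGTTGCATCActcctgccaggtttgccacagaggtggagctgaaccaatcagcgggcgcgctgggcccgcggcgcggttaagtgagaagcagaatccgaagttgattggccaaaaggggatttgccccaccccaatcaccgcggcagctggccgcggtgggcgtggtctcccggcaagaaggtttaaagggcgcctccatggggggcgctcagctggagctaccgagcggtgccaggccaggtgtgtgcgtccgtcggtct
HSPA1B: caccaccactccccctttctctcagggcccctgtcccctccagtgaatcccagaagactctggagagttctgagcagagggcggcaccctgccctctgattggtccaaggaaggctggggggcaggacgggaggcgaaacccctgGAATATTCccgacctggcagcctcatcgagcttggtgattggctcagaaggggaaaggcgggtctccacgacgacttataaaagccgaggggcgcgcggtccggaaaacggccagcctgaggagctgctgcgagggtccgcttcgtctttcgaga
EGR1: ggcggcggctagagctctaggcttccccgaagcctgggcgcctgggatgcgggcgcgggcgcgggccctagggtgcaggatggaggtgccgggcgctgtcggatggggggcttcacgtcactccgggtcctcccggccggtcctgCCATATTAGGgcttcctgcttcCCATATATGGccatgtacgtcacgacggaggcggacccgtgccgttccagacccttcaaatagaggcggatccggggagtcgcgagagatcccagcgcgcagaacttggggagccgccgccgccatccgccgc

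The MT2A promoter held 8 matches to the metal response element core and the MT1X promoter held 4. Of all 27305 RefSeq promoters of this length, 29.3% held at least 1 match, 8.59% at least 2 and 0.593% at least 4. Among the 9032 genes tested that had a promoter, these shares were 39.8%, 12.8% and 0.864%. At least 1 match was in 40 of 108 such genes called higher and 48 of 128 called lower, both smaller shares than among the genes tested. At least 2 matches were in 16.7% of those called higher and 11.7% of those called lower, and at least 4 in 4.63% and 0.781%. SLC30A1 had 2 matches, TXNIP and ALAS1 had 1 each, and these letters were not in the 300-base window of SLC39A10. The C/EBP-ATF element was in 3.67% of all promoters, the heat shock unit in 6.87% and a CArG box in 1.29%. Of the 39 ATF4 target genes tested below, 32 had a promoter in the table, and 8 of these held the C/EBP-ATF element. Of the 24 heat shock genes tested, 22 had a promoter and 9 (40.9%) held the heat shock unit. A match is a description of letters in the reference and not evidence of binding in these cells.

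Over all genes, the response at 3 h was small in size and in number. Of the 12621 genes with a mean of at least 1 FPKM over the 32 samples, 310 (2.46%) were called at an adjusted p under 0.01, 149 higher (1.18%) and 161 lower (1.28%) with CBD. Log2 fold changes are CBD minus vehicle on log2(FPKM + 1), a scale that makes changes near or under 1 FPKM look smaller, and adjusted p values are from limma with Benjamini-Hochberg adjustment over all genes tested. Only 9 of the called genes changed by at least 1 on the log2 scale (8 higher and 1 lower) and 212 changed by less than 0.2. The 10 genes that rose by at least 0.5 were MT1G, MT1E, MT2A, MT1X, MT1F, MT1M, SLC30A1, CHAC1, EGR1 and SESN2, and the 2 that fell as far were SLC39A10 and ALAS1. CBD and vehicle samples did not overlap in 1247 genes (9.88%), nor in 297 of the 310 called.

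The number of calls rests on the spread shared by all 32 samples. With the 8 samples at 3 h fitted alone, 29 genes were called, 24 higher and 5 lower, and 26 of them were among the 310. Leaving out 1 sample gave 164 (without vehicle sample 4) to 493 genes (without CBD sample 1). It also gave 169 without CBD sample 2, 196 without CBD sample 3 and 184 without vehicle sample 3. Of the genes named here, 65 were called, of which 21 also passed with the 3 h samples alone and 46 with each single sample left out. The genes called lower had long transcripts of low GC content (median 5943 bases and 43.5% GC) and those called higher shorter ones (3054 bases and 51.2%), against 3791 bases and 47.8% for all genes tested; the part of length and GC content in the calls was not tested, but a correction for both gave 437 calls among 11477 genes, 206 of them among the 310.

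**Figure D1:**
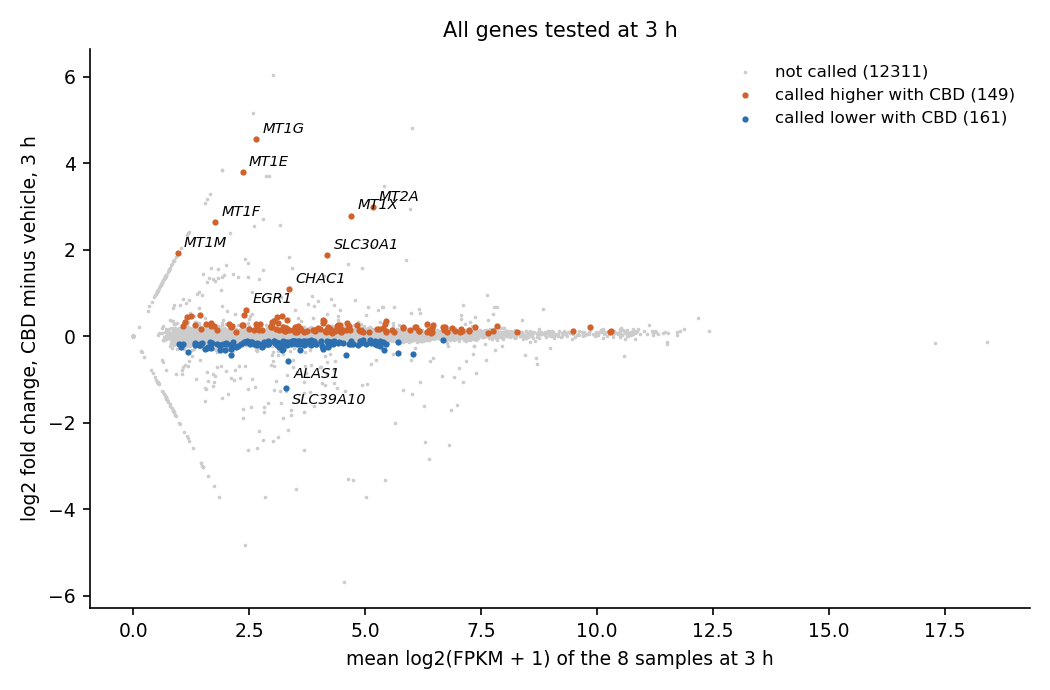
Log2 fold change of CBD against vehicle at 3 h (y axis) against the mean log2(FPKM + 1) of the 8 samples (x axis) for the 12621 genes tested, with genes called higher in orange, genes called lower in blue and the rest in grey. The metallothioneins, SLC30A1 and CHAC1 stand above the other called genes and SLC39A10 below them, and all 199 uncalled genes past 1 on the y axis are short RNA entries such as microRNA and snoRNA genes.

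The largest rises were those of 6 metallothioneins. Of 15 listed members, 7 were tested and these 6 rose. MT1G, MT1E, MT1F, MT1M and MT1H had vehicle means under 1 FPKM at all 4 times and passed the limit on FPKM only through CBD samples, so for them the filter favoured a rise and the count of members that rose is a description. The 6 that rose lie within 75.6 kb on chr16 (hg19, chr16:56642496-56718108). MT2A, a widely expressed member, was at 96.7, 132, 99.9 and 79.5 FPKM in CBD samples 1 to 4 and at 11.2, 12.2, 13.3 and 10.5 FPKM in vehicle samples 1 to 4 (log2 fold change 2.99, standard error 0.18, adjusted p = 6.6e-12). Its mean was 8.66 times the vehicle mean. MT1X was at 67.4, 88.4, 70.3 and 49.8 FPKM with CBD and 10.03, 9.75, 7.76 and 8.33 FPKM with vehicle (log2 fold change 2.79, standard error 0.18, adjusted p = 3.67e-11), a mean 7.69 times higher. The groups lay far apart for both genes, and both were well expressed with vehicle.

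The other 4 members were nearly silent with vehicle. MT1G was at 29.03, 42.8, 27.9 and 22.3 FPKM with CBD and 0.354, 0.259, 0.295 and 0.286 FPKM with vehicle (log2 fold change 4.56, standard error 0.21, adjusted p = 1.13e-14). MT1E was at 16.4, 28.6, 20.5 and 11.2 FPKM with CBD and 0.587, 0.379, 0.3496 and 0.216 FPKM with vehicle (log2 fold change 3.80, standard error 0.30, adjusted p = 1.45e-09). MT1F was at 6.99, 10.2, 5.57 and 7.77 FPKM against 0.5597, 0.283, 0.103 and 0.556 FPKM (log2 fold change 2.64, standard error 0.16, adjusted p = 1.25e-11). No linear fold is given for these 3, since their vehicle levels are under 1 FPKM. MT1M was at 2.04, 5.004, 2.78 and 2.04 FPKM with CBD and is listed at 0 for each vehicle sample (adjusted p = 5.5e-05).

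MT1H was at 0.904, 0.564, 0.201 and 0.485 FPKM with CBD and at 0, 0, 0.0592 and 0 FPKM with vehicle and was not called (adjusted p = 0.0431). MT1A, MT1B, MT3 and the pseudogenes MT1L, MT1JP, MT1IP and MT1DP were below the limit on FPKM, and MT3, the brain form, is listed at 0 in all 8 samples. CBD sample 2 was the highest of the CBD samples for all 6 genes called, and CBD sample 4 the lowest for 4 of them. Metallothionein genes are closely similar in sequence and short reads can be shared between them, so the division of the rise among members is uncertain. MT1M lost its call with 5 in place of 1 added before the logarithm and with the 3 h samples alone (adjusted p = 0.0106), where the other 5 kept theirs.

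In each of the zinc transporter families 1 tested member was called, of 5 exporters and 11 importers, beside 2.46% of all genes tested. SLC30A1, which carries zinc out of the cell across the plasma membrane, was at 31.5, 34.9, 35.998 and 33.4 FPKM with CBD and 8.78, 8.37, 8.41 and 8.42 FPKM with vehicle (log2 fold change 1.88, standard error 0.037, adjusted p = 2.19e-23), a mean 3.996 times higher. Both groups were tight and far apart. The 4 other exporters tested serve the Golgi, vesicles or other compartments and none was called, among them SLC30A5 at -0.0016 (adjusted p = 0.993) and SLC30A7 at -0.12 (adjusted p = 0.0935).

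Of the zinc importers, SLC39A10, a plasma-membrane carrier, fell from 12.3, 14.4, 13.8 and 14.9 FPKM in the vehicle samples to 5.16, 5.43, 5.88 and 5.67 FPKM in the CBD samples (log2 fold change -1.18, standard error 0.044, adjusted p = 1.45e-16). The vehicle mean was 2.503 times the CBD mean, and the highest CBD sample lay below the lowest vehicle sample by more than either group's range. The 10 other importers tested had log2 fold changes from -0.081 (SLC39A6) to 0.085, and none was called. Of the 11 tested, 1 was above 0, with a median of -0.019, beside 53.7% above 0 over all genes tested. SLC39A6, the closest relative of SLC39A10, was at 29.02, 32.02, 31.4 and 33.2 FPKM with CBD and 32.7, 33.1, 33.1 and 34.2 FPKM with vehicle (adjusted p = 0.133), so that the groups overlapped. SLC39A14, which also carries iron, was at -0.032 (adjusted p = 0.522). The calls of SLC30A1 and SLC39A10 held under every alternative and with each sample left out.

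The transcript of the sensor itself did not pass the test. MTF1 was at 2.77, 2.66, 2.58 and 2.53 FPKM with CBD and 2.88, 2.81, 2.804 and 2.89 FPKM with vehicle (a log2 fold change of -0.082, standard error 0.028, adjusted p = 0.073), with all 4 CBD samples below the vehicle samples. None of the 7 genes in the list of metal-responsive factor and cofactors was called, beside 2.46% of all genes tested. None of the 11 copper-handling genes tested was called either, including the copper importer SLC31A1 at -0.039 (adjusted p = 0.313) and SOD1, the copper- and zinc-binding superoxide dismutase, at 0.049 (adjusted p = 0.292). The highest log2 fold change in that list was 0.15. At the share of 2.46% over all genes, lists of 7 and 11 genes would mostly hold no call.

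**Figure D2:**
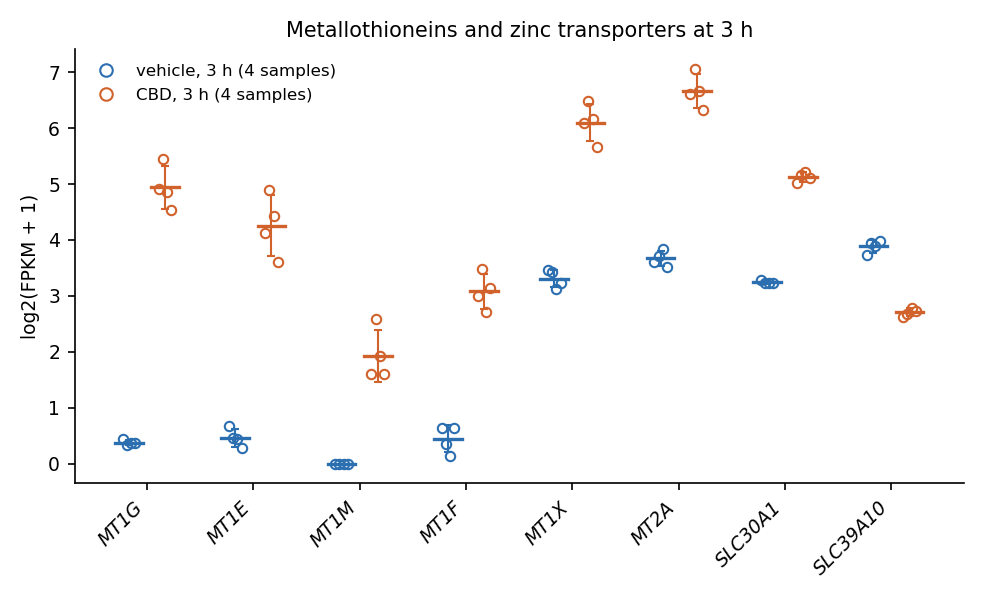
Log2(FPKM + 1) in each of the 4 vehicle (blue) and 4 CBD (orange) samples at 3 h for 6 metallothioneins, SLC30A1 and SLC39A10, with group means (lines) and SD (bars, n = 4). The groups do not overlap for any of the 8 genes, beside 297 of the 310 genes called and 9.88% of all genes tested. SLC39A10 is the only one of the 8 that is lower with CBD.

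Of the heme and iron genes, 1 of 13 tested in synthesis and 2 of 21 in breakdown and iron handling were called, beside 2.46% of all genes tested. ALAS1, the rate-limiting enzyme of heme synthesis outside red cells and a gene repressed by heme, was at 7.28, 7.62, 7.25 and 6.81 FPKM with CBD and 11.5, 11.1, 11.7 and 10.8 FPKM with vehicle (log2 fold change -0.58, standard error 0.035, adjusted p = 8.2e-12). The other 12 genes of the synthesis list were not called, with log2 fold changes from -0.074 to 0.10.

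HMOX1, the inducible enzyme that breaks heme down to biliverdin, iron and carbon monoxide, was at 1.56, 1.72, 1.57 and 1.64 FPKM with CBD and 1.19, 0.862, 0.838 and 0.762 FPKM with vehicle (log2 fold change 0.46, standard error 0.072, adjusted p = 0.000197). It rose from a level near 1 FPKM, and vehicle sample 1 was the highest of its group. HMOX1 passed the limit on FPKM only through CBD samples, so the filter favoured a rise in it. FLVCR1, a membrane carrier of heme and choline, fell (11.9, 12.03, 12.2 and 12.9 FPKM against 14.05, 14.6, 14.2 and 14.3 FPKM, log2 fold change -0.21, standard error 0.027, adjusted p = 1.83e-05). Both calls were lost with the 3 h samples alone (adjusted p = 0.0297 for HMOX1 and 0.0202 for FLVCR1) and held with each sample left out; that of ALAS1 held under every alternative.

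The other 19 genes of heme breakdown and iron handling tested did not pass. The transferrin receptor TFRC was at 69.99, 71.1, 72.01 and 73.8 FPKM with CBD and 76.3, 77.8, 78.4 and 79.3 FPKM with vehicle, and the ferritin heavy chain FTH1 at 535, 562, 533 and 537 FPKM and 509, 507, 491 and 488 FPKM. The groups did not overlap for either gene, and their adjusted p values of 0.0112 and 0.0117 lay just past the threshold. TFRC passed under 4 of 15 alternatives. BACH1, the heme-binding repressor of HMOX1, was at 0.014 (adjusted p = 0.881) with overlapping groups.

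Of 24 NFE2L2 target genes tested, 5 rose and none fell: HMOX1, SLC7A11, GCLM, TXNRD1 and GCLC. Over all genes tested, 1.18% were called higher. The vehicle means over the 4 times were 0.91 to 1.16 FPKM for HMOX1 and 0.61 to 1.01 FPKM for SLC7A11. Both passed the limit on FPKM only through CBD samples, so the filter favoured a rise in them. The median log2 fold change of the list was 0.077 and 23 of 24 were above 0, beside 53.7% above 0 over all genes tested. SLC7A11, the cystine importer, was at 1.76, 1.69, 1.93 and 1.72 FPKM with CBD and 0.882, 1.08, 1.005 and 1.06 FPKM with vehicle (log2 fold change 0.47, standard error 0.096, adjusted p = 0.00345). GCLM, the modifier subunit of the enzyme that begins glutathione synthesis, rose by 0.15 (adjusted p = 0.00342), and its catalytic partner GCLC rose by 0.093 (adjusted p = 0.00672). TXNRD1, thioredoxin reductase, rose by 0.10 (adjusted p = 0.00228). NQO1, a quinone reductase often used as a marker of NFE2L2, was at 0.12 and was not called (adjusted p = 0.0612). The transcript of NFE2L2 was at 65.99, 73.2, 72.4 and 72.8 FPKM with CBD and 67.9, 71.2, 70.9 and 75.3 FPKM with vehicle, a difference of -0.0044 on the log2 scale (adjusted p = 0.97). Of the 5, SLC7A11 was the only one to pass with the 3 h samples alone. SLC7A11 lost its call without CBD sample 3 or vehicle samples 1 or 3 (adjusted p from 0.0112 to 0.0153), GCLM without CBD samples 2 or 4 or vehicle sample 3 (adjusted p from 0.0114 to 0.0188), GCLC without CBD samples 2, 3 or 4 or vehicle samples 2, 3 or 4 (adjusted p from 0.0179 to 0.0308) and TXNRD1 without CBD sample 2 or vehicle sample 3 (adjusted p from 0.0112 to 0.0129).

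ATF4 targets, the list with the most members tested, formed the largest group of calls. Of 39 tested, 15 rose and 1 fell, beside 1.18% called higher and 1.28% called lower over all genes tested. The median log2 fold change was 0.13 and 37 were above 0. SLC7A11, in which the filter favoured a rise, is among the 15. CHAC1, which degrades glutathione, led them at 15.3, 14.1, 13.6 and 12.7 FPKM with CBD and 6.501, 5.71, 6.196 and 5.76 FPKM with vehicle (log2 fold change 1.08, standard error 0.10, adjusted p = 5.29e-08). Its mean was 2.31 times that of vehicle and the groups lay far apart. ATF3, a stress-induced repressor, was at 4.87, 5.87, 5.402 and 4.78 FPKM with CBD and 3.59, 3.32, 3.41 and 3.32 FPKM with vehicle (log2 fold change 0.50, standard error 0.077, adjusted p = 0.000178). SESN2, a leucine sensor that restrains mTORC1, was at 2.39, 2.25, 2.26 and 2.02 FPKM against 1.39, 1.28, 1.195 and 1.24 FPKM (log2 fold change 0.50, standard error 0.10, adjusted p = 0.00374), and STC2, a secreted glycoprotein, rose by 0.36 (adjusted p = 0.000164).

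Genes of amino acid supply rose by less. Asparagine synthetase, ASNS, was at 91.7, 99.2, 95.6 and 94.9 FPKM with CBD and 81.8, 78.7, 77.7 and 78.8 FPKM with vehicle (log2 fold change 0.26, standard error 0.046, adjusted p = 0.000668). PSAT1, of serine synthesis, rose by 0.21 (adjusted p = 7.51e-05), and the alanyl- and glycyl-tRNA synthetases AARS and GARS rose by 0.19 and 0.22 (adjusted p = 0.000302 and 0.000453). For all 4 genes every CBD sample lay above every vehicle sample. Groups did not overlap in 297 of the 310 genes called and in 9.88% of all genes tested. The remaining 5 called members other than SLC7A11 and HERPUD1 rose by 0.16 to 0.39. The 1 member that fell was VLDLR, a lipoprotein receptor (log2 fold change -0.14, adjusted p = 0.000139).

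ATF4 itself, whose activity is set mainly by translation, was at 261, 249.7, 246 and 238 FPKM with CBD and 213, 212, 215 and 203 FPKM with vehicle (log2 fold change 0.24, standard error 0.037, adjusted p = 0.000182). Its often-used targets DDIT3 and TRIB3 did not pass. DDIT3, the factor CHOP, was at 11.5, 13.5, 12.2 and 13.3 FPKM against 8.45, 8.61, 9.95 and 9.598 FPKM (log2 fold change 0.42, adjusted p = 0.0147), and TRIB3 at 0.054 (adjusted p = 0.835) with overlapping groups. DDIT4, an inhibitor of mTORC1, was at 21.5, 20.6, 20.9 and 19.5 FPKM with CBD and 13.6, 13.2, 14.4 and 15.6 FPKM with vehicle and was not called (adjusted p = 0.0365) although its groups did not overlap. With the 3 h samples alone 8 members were called, among them CHAC1, ASNS, AARS, STC2 and SESN2. ATF4 and ATF3 were not (adjusted p = 0.0259 and 0.0134), nor were PSAT1, GARS and VLDLR (adjusted p = 0.0108, 0.0143 and 0.0532). SESN2 lost its call without CBD samples 2 or 3 or vehicle samples 2, 3 or 4 (adjusted p from 0.0113 to 0.0156). VLDLR also lost its call with the correction for length and GC content.

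The unfolded protein response of the endoplasmic reticulum was touched at 3 genes of 21 tested. All were higher, beside 1.18% called higher over all genes tested. HSPA5, the chaperone BiP, was at 68.3, 70.5, 70.4 and 83.4 FPKM with CBD and 63.5, 59.4, 63.6 and 64.3 FPKM with vehicle (log2 fold change 0.21, standard error 0.045, adjusted p = 0.00428), with CBD sample 4 well above the others. XBP1, a factor activated by splicing, was at 47.98, 46.2, 46.3 and 47.9 FPKM and 39.7, 36.8, 37.9 and 38.4 FPKM (log2 fold change 0.30, standard error 0.052, adjusted p = 0.000765). HERPUD1, of the degradation machinery and also an ATF4 target, rose by 0.26 (adjusted p = 0.00708). The median of the list was 0.030, and the chaperone HSP90B1 and the co-chaperone DNAJB9 were at 0.12 and -0.012 (adjusted p = 0.334 and 0.88). HSPA5 did not pass with the 3 h samples alone (adjusted p = 0.166) or without CBD sample 4 or vehicle samples 2 or 3 (adjusted p from 0.0107 to 0.0222), and HERPUD1 lost its call without any 1 of the 8 samples (adjusted p up to 0.0241).

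In the heat shock list 5 of 24 genes rose, beside 1.18% called higher over all genes tested, and none fell. The median was 0.093 and 23 were above 0. HSPA1B, an inducible HSP70 gene, was at 18.5, 18.1, 17.5 and 19.6 FPKM with CBD and 14.4, 12.95, 14.3 and 14.04 FPKM with vehicle (log2 fold change 0.38, standard error 0.04, adjusted p = 6.28e-07), and its near-identical neighbour HSPA1A was at 7.79, 7.63, 7.95 and 8.34 FPKM and 5.93, 5.79, 6.32 and 6.16 FPKM (log2 fold change 0.34, standard error 0.043, adjusted p = 1.19e-05). Reads can be shared between these 2 genes, so their separate levels are uncertain. DNAJB1, the HSP40 partner of HSP70, was at 74.1, 72.2, 68.3 and 74.4 FPKM with CBD and 64.9, 59.1, 62.3 and 60.4 FPKM with vehicle (log2 fold change 0.23, standard error 0.029, adjusted p = 1.56e-05). The collagen chaperone SERPINH1 rose by 0.25 (adjusted p = 6e-05), and the constitutive HSPA8 was at 933, 988, 971 and 1068 FPKM against 862, 808, 861 and 888 FPKM (log2 fold change 0.21, standard error 0.035, adjusted p = 0.000346).

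HSPA6, the strictly inducible HSP70, stayed under 0.2 FPKM in every sample. BAG3, another classical heat shock target, was at 0.013 (adjusted p = 0.914) and HSPH1 at 0.056 (adjusted p = 0.464). With the 3 h samples alone, HSPA1A and SERPINH1 were called (adjusted p = 0.0097 and 0.00429) and HSPA1B, HSPA8 and DNAJB1 were not (adjusted p = 0.0135, 0.097 and 0.0485).

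Of 15 immediate-early transcription factors tested, 3 rose, beside 1.18% called higher over all genes tested, and none fell. The median was 0.10 and 10 were above 0. EGR1, a zinc-finger factor induced through serum response factor, was at 5.12, 7.59, 5.95 and 4.66 FPKM with CBD and 3.49, 3.52, 3.21 and 3.37 FPKM with vehicle (log2 fold change 0.62, standard error 0.091, adjusted p = 9.24e-05). Its CBD samples were spread widely, with sample 2 the highest, and all lay above the vehicle samples. MAFF, a small MAF protein that pairs with NFE2L2, was at 2.58, 2.59, 2.61 and 2.497 FPKM and 2.15, 1.77, 1.83 and 1.71 FPKM (log2 fold change 0.32, standard error 0.053, adjusted p = 0.000392), and ATF3 is described above.

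FOS, the textbook immediate-early gene, was below the limit on FPKM at 0.489, 0.658, 0.477 and 0.405 FPKM with CBD and 0.401, 0.3598, 0.411 and 0.282 FPKM with vehicle, and EGR2, EGR3 and MYC were near 0. JUN was at 18.5, 20.6, 20.2 and 19.7 FPKM with CBD and 22.1, 23.3, 22.3 and 21.3 FPKM with vehicle, a difference of -0.16 on the log2 scale (adjusted p = 0.0712), with all CBD samples below the vehicle samples. FOSL2 lay just past the threshold at -0.18 (adjusted p = 0.0101), and JUNB and NR4A1 had overlapping groups. EGR1, ATF3 and MAFF lost their calls with the 3 h samples alone (adjusted p = 0.0714, 0.0134 and 0.0326).

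Immediate-early genes that are not transcription factors moved both ways, with 2 of 26 higher and 4 lower. Over all genes tested, 1.18% were called higher and 1.28% lower. RGS4, which shortens signalling from Gq- and Gi-coupled receptors, was at 43.5, 44.2, 46.1 and 45.2 FPKM with CBD and 54.3, 59.6, 58.7 and 62.8 FPKM with vehicle (log2 fold change -0.39, standard error 0.081, adjusted p = 0.00386). GEM, a small GTPase, fell by 0.22 on the log2 scale (adjusted p = 0.00238), NFKBIA, the inhibitor of NF-κB, by 0.22 (adjusted p = 0.000416) and the pseudokinase TRIB1 by 0.15 (adjusted p = 0.00305). GADD45A, a growth-arrest gene, was at 19.7, 24.1, 24.1 and 25.5 FPKM against 19.2, 18.6, 18.999 and 19.5 FPKM (log2 fold change 0.27, standard error 0.061, adjusted p = 0.00737), with CBD sample 1 close to the vehicle samples. ARC, a synaptic immediate-early gene, rose by 0.22 (adjusted p = 0.00293). None of these 6 passed with the 3 h samples alone, and 5 of them, all but NFKBIA, lost their calls when 1 sample was left out. RGS4 lost its call without CBD sample 2 or vehicle samples 2, 3 or 4 (adjusted p from 0.0127 to 0.0203), GEM without vehicle samples 3 or 4 (adjusted p from 0.0107 to 0.012) and TRIB1 without CBD samples 3 or 4 or vehicle sample 2 (adjusted p from 0.0139 to 0.0171). GADD45A lost its call without CBD samples 2, 3 or 4 or vehicle samples 1, 2, 3 or 4 (adjusted p from 0.0132 to 0.0305) and ARC without CBD samples 2 or 3 or vehicle sample 4 (adjusted p from 0.0122 to 0.0199).

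The ERK feedback list holds genes switched on by this kinase, only some of which restrain it. Of 15 tested, 5 rose, beside 1.18% called higher over all genes tested, and none fell. The median was 0.058 and 11 were above 0. SPRY4, a Sprouty inhibitor, was at 9.53, 8.96, 8.803 and 8.94 FPKM with CBD and 6.56, 6.55, 6.13 and 6.37 FPKM with vehicle (log2 fold change 0.44, standard error 0.04, adjusted p = 2.57e-08). The ERK phosphatases DUSP6 and DUSP4 were at 18.6, 17.4, 18.3 and 17.8 FPKM against 15.7, 14.4, 14.1 and 13.6 FPKM (log2 fold change 0.30, standard error 0.037, adjusted p = 8.94e-06) and at 59.8, 60.8, 59.1 and 60.3 FPKM against 53.4, 52.3, 52.02 and 49.8 FPKM (log2 fold change 0.21, standard error 0.023, adjusted p = 1.05e-06). The ETS factor ETV5 rose by 0.21 (adjusted p = 0.00086). EGR1, counted above among the immediate-early factors too, was the fifth. SPRY2, SPRED1 and CCND1 were at 0.058, -0.069 and 0.036 and were not called. SPRY4 passed under every alternative, while DUSP6, DUSP4 and ETV5 did not pass with the 3 h samples alone (adjusted p = 0.0283, 0.0108 and 0.0555). RGS16, another inhibitor of G-protein signalling and a member of no list, was at 9.796, 10.4, 10.01 and 9.604 FPKM with CBD and 7.06, 6.78, 7.08 and 6.502 FPKM with vehicle (log2 fold change 0.48, standard error 0.038, adjusted p = 2.43e-09) and also passed under every alternative.

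**Figure D3:**
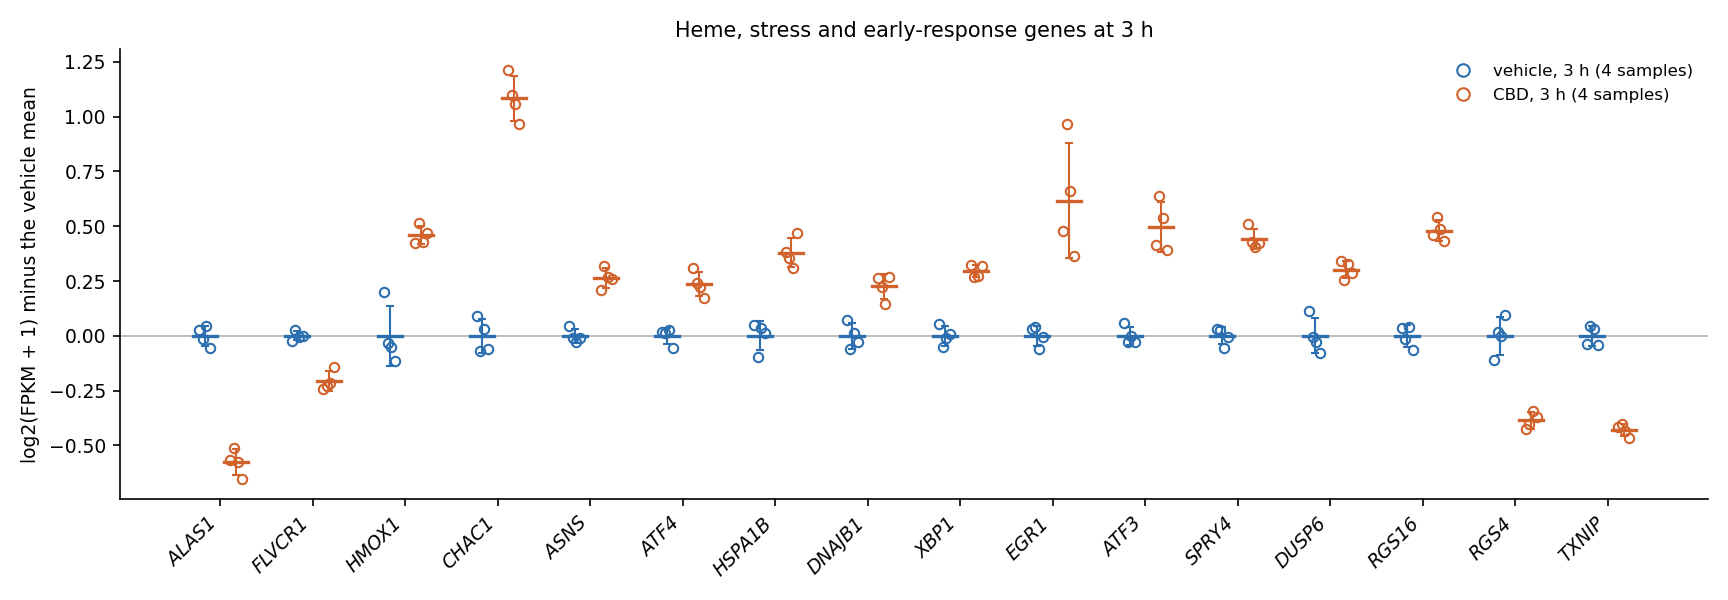
Log2(FPKM + 1) minus the vehicle mean in each of the 4 vehicle (blue) and 4 CBD (orange) samples at 3 h for 16 heme, stress and early-response genes, with group means (lines) and SD (bars, n = 4). CHAC1 has the highest CBD mean, EGR1 the widest spread among CBD samples, and ALAS1, FLVCR1, RGS4 and TXNIP lie below 0.

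Alpha-arrestins split. TXNIP, which limits glucose uptake and binds thioredoxin, fell from 26.3, 27.9, 27.5 and 26.2 FPKM to 19.9, 20.2, 19.7 and 19.2 FPKM (log2 fold change -0.43, standard error 0.032, adjusted p = 4.42e-10), a call that held under every alternative. ARRDC4, its closest relative, fell from 2.8999, 2.73, 2.79 and 3.07 FPKM to 2.14, 2.41, 2.38 and 2.59 FPKM (log2 fold change -0.20, standard error 0.037, adjusted p = 0.00128). ARRDC3, an arrestin of receptor trafficking, rose from 6.28, 6.79, 6.63 and 7.47 FPKM to 7.98, 8.98, 9.04 and 8.87 FPKM (log2 fold change 0.32, standard error 0.041, adjusted p = 1.48e-05). MLX and MLXIP, partners in the glucose-sensing complex that drives TXNIP, were at -0.037 and -0.13 and were not called (adjusted p = 0.435 and 0.0507). ARRDC3 and ARRDC4 did not pass with the 3 h samples alone (adjusted p = 0.0532 and 0.101).

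Hypoxia genes and p53 targets had 1 call each, beside 2.46% called over all genes tested. Of 21 hypoxia genes the one called was ADM, the peptide adrenomedullin, which fell by 0.23 on the log2 scale (adjusted p = 0.00659). Of 12 p53 targets it was ZMAT3, an RNA-binding protein, which fell by 0.17 on the log2 scale (adjusted p = 0.00627), and CDKN1A, the cell-cycle inhibitor p21, was at 0.13 (adjusted p = 0.16). Neither passed with the 3 h samples alone. ADM also lost its call without CBD samples 2, 3 or 4 or vehicle samples 1, 2 or 3 (adjusted p from 0.0156 to 0.0237) and ZMAT3 without CBD samples 2 or 3 or vehicle samples 1, 2, 3 or 4 (adjusted p from 0.0116 to 0.0386).

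Of 27 sterol synthesis and uptake genes tested, 4 fell, beside 1.28% called lower over all genes tested, and none rose. The median was -0.057 and 5 were above 0. INSIG1, which retains the sterol sensor in the endoplasmic reticulum, was at 42.5, 39.6, 38.3 and 40.3 FPKM with CBD and 45.9, 46.2, 45.9 and 42.9 FPKM with vehicle (log2 fold change -0.17, standard error 0.033, adjusted p = 0.00252). The synthesis enzymes SC5D and CYP51A1 fell by 0.16 and 0.13 (adjusted p = 0.0025 and 0.00264). These 3 did not pass with the 3 h samples alone (adjusted p = 0.0928, 0.0896 and 0.069). INSIG1 also lost its call without CBD samples 2 or 3 or vehicle samples 2 or 3 (adjusted p from 0.0112 to 0.0151), SC5D without CBD sample 2 or vehicle samples 2 or 4 (adjusted p from 0.0111 to 0.013) and CYP51A1 without vehicle samples 1 or 3 (adjusted p from 0.0103 to 0.0112).

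**Figure D4:**
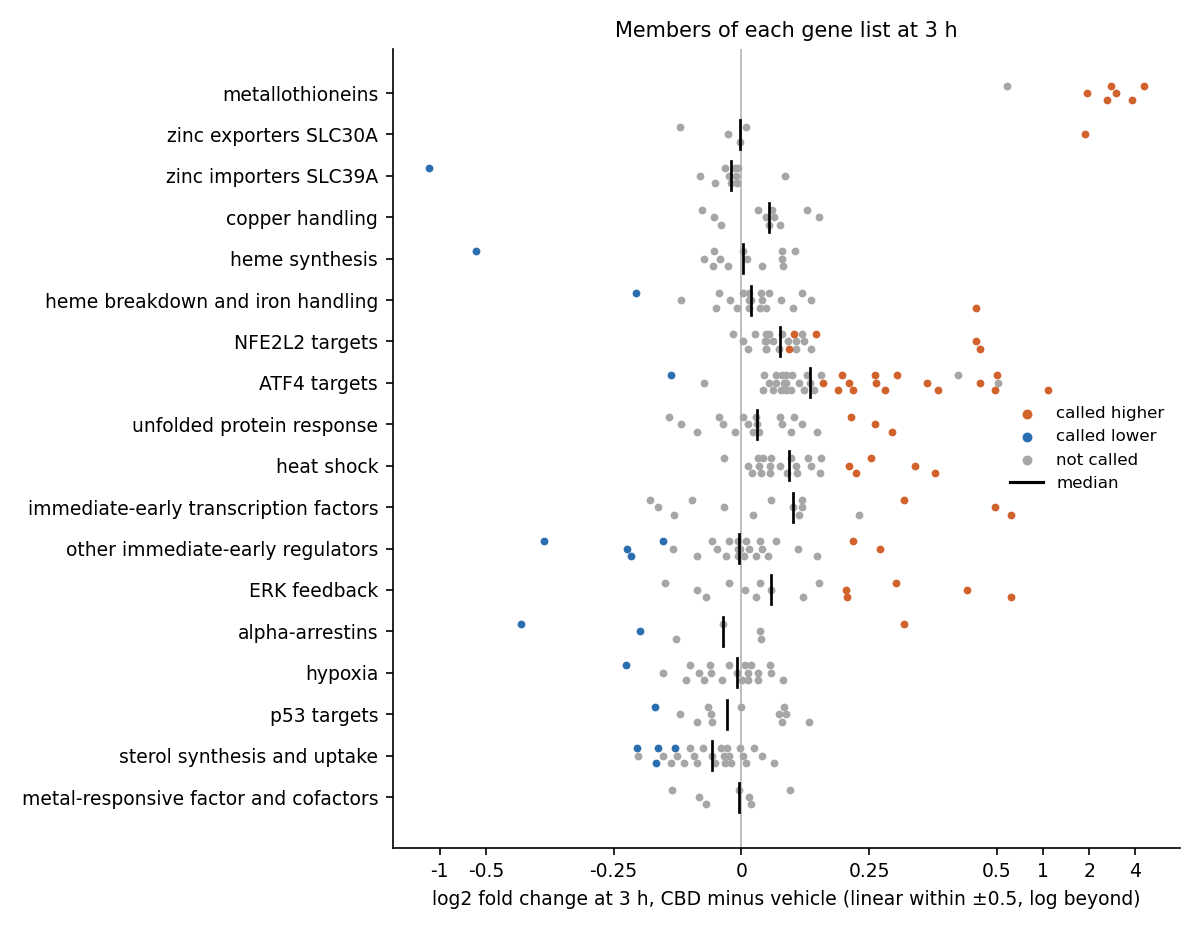
Log2 fold change at 3 h of each tested member of 18 gene lists (points; orange, called higher; blue, called lower; grey, not called) with the list median (black line, not drawn for the metallothioneins), on an axis that is linear within 0.5 of 0 and logarithmic beyond. Of the 7 metallothioneins, 6 lie above every member of the other lists. ATF4 targets, with the most members tested (39), hold the most called members (16). The zinc transporter and heme synthesis lists have 1 called member each.

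The larger falls named next include several genes with known neuronal roles. INSM2, a zinc-finger factor of neuroendocrine cells, was at 58.4, 56.5, 56.6 and 53.3 FPKM with CBD and 77.6, 78.5, 76.3 and 65.8 FPKM with vehicle (log2 fold change -0.40, standard error 0.047, adjusted p = 4.61e-06). NEUROD1, a proneural factor, was at 9.25, 10.5, 9.53 and 10.04 FPKM and 12.04, 12.2, 12.5 and 12.99 FPKM (log2 fold change -0.31, standard error 0.035, adjusted p = 1.66e-06), and NEUROG2 fell by 0.32 on the log2 scale (adjusted p = 0.00302). LRRN3, SLITRK6 and the synaptic vesicle protein gene SV2C fell by 0.31, 0.30 and 0.28 (adjusted p = 0.000103, 0.00261 and 0.000107). Of the 13 adrenergic markers, 1 was called, lower with CBD, beside 1.28% called lower over all genes tested. Of the 13, 9 were above 0, with a median of 0.042. The genes of this paragraph were named for the size of their fall and form no list. In bulk samples, fewer cells of a kind and less RNA per cell cannot be told apart.

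Among the remaining large falls were DOK3, an adaptor of immune receptors (log2 fold change -0.42, adjusted p = 4.92e-05), the testis kinase gene TSSK2 (-0.35, adjusted p = 0.000145), PCF11, a factor of transcript cleavage (-0.32, adjusted p = 0.000158), the G-protein subunit gene GNB3 (-0.31, adjusted p = 0.000278) and the noncoding LINC00341 (-0.30, adjusted p = 7.9e-06). TSSK2 and LINC00341 were between 0.9 and 2.3 FPKM in all 8 samples. The means of TSSK2 over the 4 times were 0.705 to 1.08 FPKM with CBD and 1.27 to 1.58 FPKM with vehicle. TSSK2 passed the limit on FPKM only through vehicle samples, so the filter favoured a fall in it. None of the genes named in this paragraph or the one before passed with the 3 h samples alone (lowest adjusted p = 0.0108, for LINC00341). NEUROG2 also lost its call without CBD samples 2 or 3 or vehicle samples 1 or 2 (adjusted p from 0.0108 to 0.0205) and SLITRK6 without vehicle samples 3 or 4 (adjusted p from 0.0112 to 0.0155).

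The 6 h cultures, with their own vehicle, show which early changes were called again. Of the 310 genes, 157 (50.6%) were also called at 6 h in the same direction, 72 higher and 85 lower. These 157 made up 12.2% of the 1288 genes called at 6 h (10.2% of those tested). A further 5 were called in the opposite direction and 148 were not called at 6 h. Whatever the call at 6 h, 278 of the 310 kept the sign of their effect. Both times share the estimate of spread for each gene, so their calls are not independent. A test of the 6 h effect against the 3 h effect called 265 genes (2.10%), of which 41 had been called at 3 h: 23 with a larger effect at 6 h and 18 with a smaller or turned one.

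Of the metal genes, the 6 metallothioneins called at 3 h rose further, MT2A from 2.99 to 4.67 (difference 1.68, adjusted p = 0.000111) and MT1G by a further 2.23 (adjusted p = 1.54e-05). SLC30A1 was at 1.88 at 3 h and 1.78 at 6 h (adjusted p of the difference = 0.314), and at 0.93 and 0.27 at 12 and 24 h. SLC39A10 fell further to -1.78 at 6 h (adjusted p of the difference = 5.44e-07) and was at -0.72 and 0.026 at 12 and 24 h. The largest measured effect was at 3 h for the exporter and at 6 h for the importer.

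HMOX1 grew from 0.46 to 1.47 (adjusted p of the difference = 3.9e-07) and ALAS1 from -0.58 to -0.79 (adjusted p of the difference = 0.00853), while FLVCR1 returned to 0.057 (adjusted p of the difference = 6.65e-05). CHAC1 was at 1.08 and 1.16 (adjusted p of the difference = 0.823). HSPA1B was at 0.50 at 6 h and at -0.035 and -0.31 at 12 and 24 h (limma adjusted p = 6.44e-10, 0.561 and 2.82e-07). HSPA1B was therefore called higher with CBD at 3 and 6 h, not called at 12 h and called lower at 24 h.

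Among early signalling genes, RGS16 faded from 0.48 to 0.20 (adjusted p of the difference = 0.002), RGS4 fell further to -1.29 (adjusted p of the difference = 1.1e-05) and JUN, not called at 3 h, was at -0.81 at 6 h (adjusted p of the difference = 6.14e-06). ETV5 and DUSP6 grew to 0.61 and 0.60 (adjusted p of the difference = 1.37e-05 and 0.00102). The 4 sterol genes that fell at 3 h all rose at 6 h, INSIG1 among them to 0.70 (adjusted p of the difference = 2.49e-12), and the effect differed between the times for 16 of the 27 genes of that list. They account for 4 of the 5 genes called in opposite directions.

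**Figure D5:**
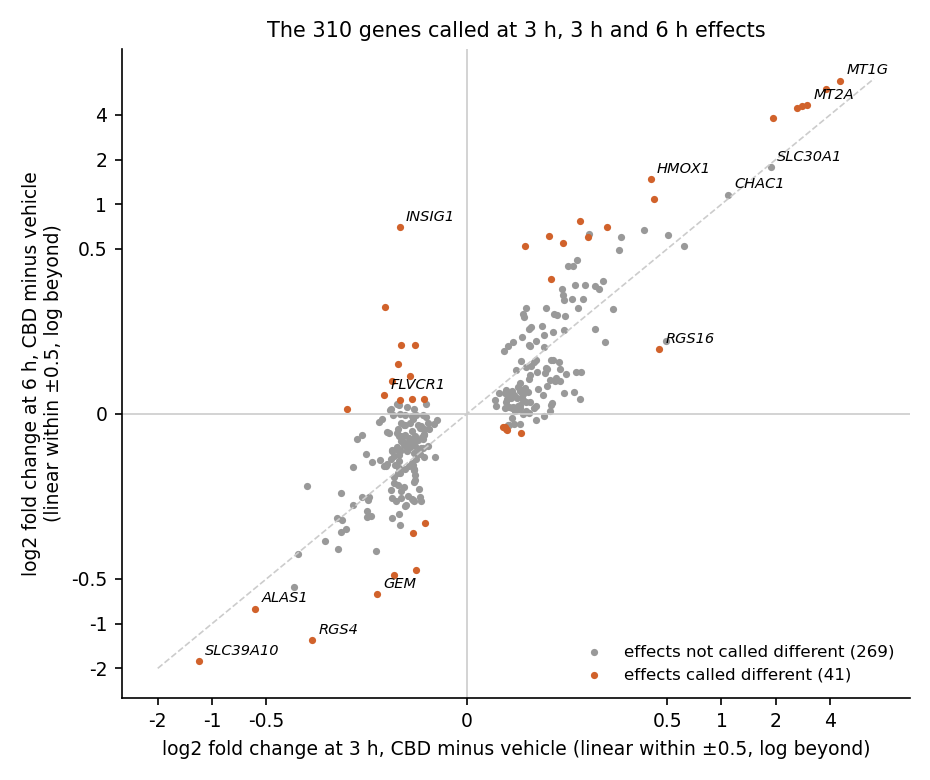
Log2 fold change of CBD against vehicle at 3 h (x axis) and 6 h (y axis) for the 310 genes called at 3 h, with the 41 genes whose effects were called different in orange, on axes that are linear within 0.5 of 0 and logarithmic beyond; the dashed line marks equal effects. The metallothioneins, HMOX1 and RGS4 lie farther from 0 at 6 h than at 3 h, RGS16 lies nearer, and INSIG1 is below 0 at 3 h and above 0 at 6 h.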

How the data were processed

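RNA-Seq of SK-N-BE(2) cells was measured at 4 times (3, 6, 12 and 24 h) under 20 µM CBD or vehicle, with 4 samples each. Per the labels and the methods of the study, polyadenylated RNA was sequenced as single reads of 50 bases (the labels name a Nugen library protocol and the methods a TruSEQ one), and the submitters' processing notes name Trimmomatic 0.36, TopHat, Cufflinks and the build hg19. The authors deposited FPKM per gene and sample, which are not counts, with no further scaling stated, and a table of their own Cuffdiff comparisons (log2 fold changes and q-values), which was not used. The gene annotation behind the FPKM is not given in the sources used here.

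FPKM were transformed to log2(FPKM + 1), and the 12621 genes with a mean of at least 1 FPKM over 32 samples were fitted in 1 model with 8 group means in limma 3.58.1 under R 4.3.3 (lmFit, contrasts.fit, eBayes with trend; 24 residual degrees of freedom). The contrasts were CBD minus vehicle at 3 and 6 h and the difference between them, with Benjamini-Hochberg adjustment within each and a threshold of 0.01. A call means that this threshold was passed. Relative depth was estimated from the lowest values of 1414 genes that were above 0 in only a few samples, and tested with an exact permutation test. In data simulated for this comparison with 12621 genes, calls were made for 35 of 50 genes with a true log2 change of 0.2. They were made for 48 of 50 with one of 0.5, 49 of 50 with 1 and 45 of 50 with 2. Of 12421 unchanged genes, 2 were called. Each gene was simulated with the same normal spread in all 32 samples, so these counts give no error rate for the measured data.

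The members, gene lists and tests were chosen with earlier results of these data known. Genes were named if they were called list members (up to 8 per list by adjusted p), among the 15 largest rises or falls of called genes with non-overlapping groups, or in a list of names fixed with the design (for example MTF1, TFRC, BACH1, DDIT3, TRIB3, NFE2L2, FOS and JUN); uncalled list members are named with values only. A few list members are included in the counts but not reported here. Gene positions are from GENCODE on hg19. Promoters came from RefSeq (GRCh38.p14) and matched 71.6% of the genes tested. Motif shares are therefore given mainly against all 27305 promoters and for lists with at least 80% matched. Those of the genes tested and called cover the matched genes only. Alternatives covered the value added, the filter, scaling, samples fitted, a replicate block, eBayes options, sample weights, relative depth, the threshold and leaving out each sample; a correction for length and GC content and removal of short RNA entries were added after seeing the data.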

Additional observations from a re-analysis of the deposited data

Results flagged for a closer look

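Tested against each other in limma, the CBD effects at 6 h and 3 h were different in 265 genes (adjusted p under 0.01), 24 of them named here. The difference in log2 effect, 6 h minus 3 h, was positive for MT1G (2.23), MT1E (2.14), MT1M (1.89), MT1F (1.82), MT1X (1.78), MT2A (1.68), HMOX1 (1.01), SLC7A11 (0.61), GCLM (0.38), ETV5 (0.40), DUSP6 (0.30) and PSAT1 (0.20), all of them higher with CBD at both times. It was also positive for genes that were lower at 3 h, namely INSIG1 (0.87), SC5D (0.37), CYP51A1 (0.34), LINC00341 (0.31) and FLVCR1 (0.26). It was negative for RGS4 (-0.90), JUN (-0.64), SLC39A10 (-0.60), GEM (-0.41), TFRC (-0.35) and ALAS1 (-0.22), which were farther below vehicle at 6 h, and for RGS16 (-0.28), whose rise was smaller at 6 h. MT1M is listed at 0 in every vehicle sample at 3 h, so its fitted difference is no measure of fold.

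In 144 groups of 4 samples (each named gene with CBD and with vehicle), 9 had a sample far from the other 3, where chance gives about 1 in 20. CBD sample 1 was the lowest by a wide gap for ARRDC3 (7.98 FPKM), LRRN3 (33.2 FPKM), NFE2L2 (66.0 FPKM) and BACH1 (5.25 FPKM). CBD sample 4 was the highest for HSPA5 (83.4 FPKM), and vehicle sample 2 was the lowest for that gene (59.4 FPKM). Vehicle sample 3 was the lowest for GCLM (7.14 FPKM), vehicle sample 4 the lowest for INSIG1 (42.9 FPKM) and vehicle sample 1 the highest for SLC30A1 (8.78 FPKM). The per-sample slope of expression on GC content was 0.083 on the log2 scale per 10% GC in CBD sample 1, the highest of the 8 samples at 3 h; its part in these values was not tested.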

How the results depend on the processing

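No named gene turned its direction past the threshold under any alternative, and 18 of the 65 named calls held under all alternatives and with each sample left out. Fitted alone, the 3 h samples gave 29 calls (24 higher, 5 lower), 118 genes whose effect differed between 6 h and 3 h and 22 called the same way at both times, and 44 named calls were lost. This fit has fewer samples; with array weights there were 1461 calls (812 higher, 649 lower), 1739 differing effects and 378 shared, for which the cause was not tested. With relative depth as a term there were 186 calls, 84 of them lower, and 11 named calls were lost. At an adjusted p under 0.05 there were 917 calls (449 higher, 468 lower), 737 differing effects and 384 shared. The correction for length and GC content, added after seeing the data, gave 250 lower calls and 239 shared with 6 h. Quantile normalization lost 5 named calls and no filter 4.

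Leaving out 1 sample gave 164 to 493 calls, 76 to 271 higher, 88 to 222 lower, 152 to 602 differing effects and 104 to 178 shared with 6 h. The difference in relative depth stayed between -0.115 and -0.064.

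Replicate numbers are shared across groups, but same-numbered samples did not deviate together at 3 h (correlations from -0.068 to 0.094), and 1 of 4 CBD samples correlated best with its own number. With the replicate block there were 341 calls (142 higher, 199 lower), 224 of them shared with the 310, and 164 differing effects, and 10 named calls were lost (ADM, GADD45A, GCLC, HERPUD1, HSPA5, INSIG1, NEUROG2, SESN2, SLC7A11 and ZMAT3). FPKM keep no read depth, so no counting interval can be given for a gene near 1 FPKM.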

Other observations

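Numbered ZNF genes, which encode DNA-binding zinc-finger proteins, were noticed among the calls after their values were seen. Of 380 tested, 13 were called higher with CBD at 3 h and none lower by limma, beside 1.18% of all genes called higher, and 256 were above 0 with a median log2 fold change of 0.034. The called members ranged from 0.098 (ZNF512) to 0.29 (ZNF18), and included ZNF16 at 0.27, ZNF768 at 0.23 and ZNF777 at 0.22. Only 2 of the 13 were called in the same direction at 6 h.

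The 619 short RNA entries among the genes tested, such as microRNA and snoRNA genes, were not called at 3 h by limma in any case, although 199 of them had log2 fold changes of at least 1 in either direction. They were the only uncalled genes that far from 0.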
